A study of Arabidopsis thaliana with 13 samples.

Results

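A set of 7 genes, read by 8 probe sets, was chosen because their signal was higher after 15 min of the cytokinin 6-benzyl adenine (BA) in Arabidopsis thaliana seedlings, and because they are not response regulators. They are AT1G21830 (2 probe sets), AT1G68670, AT3G19850, AT1G68360, AT3G50300, AT1G06980 and AZG1. They are 7 of the 13286 genes that the platform annotation and the gene table pair with a probe set of their own, on arrays with 22746 probe sets apart from controls. The choice used the 15 min values in Col-0 and in CKX1, so those 2 comparisons are given below as a description, with no test.

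Cytokinins bind histidine kinase receptors, and phosphotransfer proteins then pass phosphate to the type-B response regulators, which are transcription factors. Genes that these factors switch on within minutes are called primary response genes. The type-A response regulators, which dampen the same pathway, are the best known of them, and the genes described here were chosen for a higher early signal without belonging to that family. AZG1 is a membrane transporter of purines such as adenine and is also known to carry cytokinins. The other 6 genes have only a locus tag in the gene table used here, so no name or role is given for them.

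Seedlings of the wild type Col-0 and of a transgenic line carrying 35S::CKX1 were grown in liquid MS medium. The constitutive 35S promoter of that line drives a cytokinin oxidase, an enzyme that breaks cytokinins down, and the labels do not say how many independent lines were used. The 13 arrays comprised Col-0 with solvent (n = 2), Col-0 after 15 min (n = 2) and 120 min (n = 2) of BA, CKX1 with solvent (n = 3) and CKX1 after 15 min of BA (n = 4). Solvent was given for 2 h, as long as the late BA treatment and longer than the early one, and BA was dissolved in diluted KOH. The dose of BA is not given in the sources used here, and the labels state 6 days of growth only for Col-0 with BA. CKX1 was not measured at 120 min in these arrays. Values are normalized signals in arbitrary units, 1 per probe set and array. Since the labels name no separate cultures, the p-values may cover technical spread alone. RNA came from whole seedlings, so fewer cells of a type and less RNA per cell cannot be told apart in any value below.

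Array medians lay between 30.5 and 39.5 units, and 2 of the 5 shoot markers and 4 of the 6 root markers fixed for a check had a probe set. All 6 were measured at 32.6 units or more in every array, with at least 3940.7 units for the chlorophyll-binding LHCB4.1 and at least 2228.6 units for the root protein PYK10. The 25S ribosomal RNA control divided the arrays, with 92.5 to 803.7 units in Col-0 15 min array 2, both Col-0 120 min arrays, CKX1 solvent array 3 and CKX1 15 min array 3, against 2.4 to 46.2 units in the other 8. Col-0 15 min array 2 was the lowest of these 5, at 92.5 units, followed by CKX1 solvent array 3 at 260.3 units. The 5 arrays also lay together on the first principal component, which held 34.3% of the variance. The source field of Col-0 120 min array 1 names the control solution, while its title and description give 120 min of BA. It was grouped by the title, and the 120 min differences are also given without it. All 8 member probe sets passed the filter on low signals, which kept 15922 of the 22746 probe sets.

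**Figure D1:**
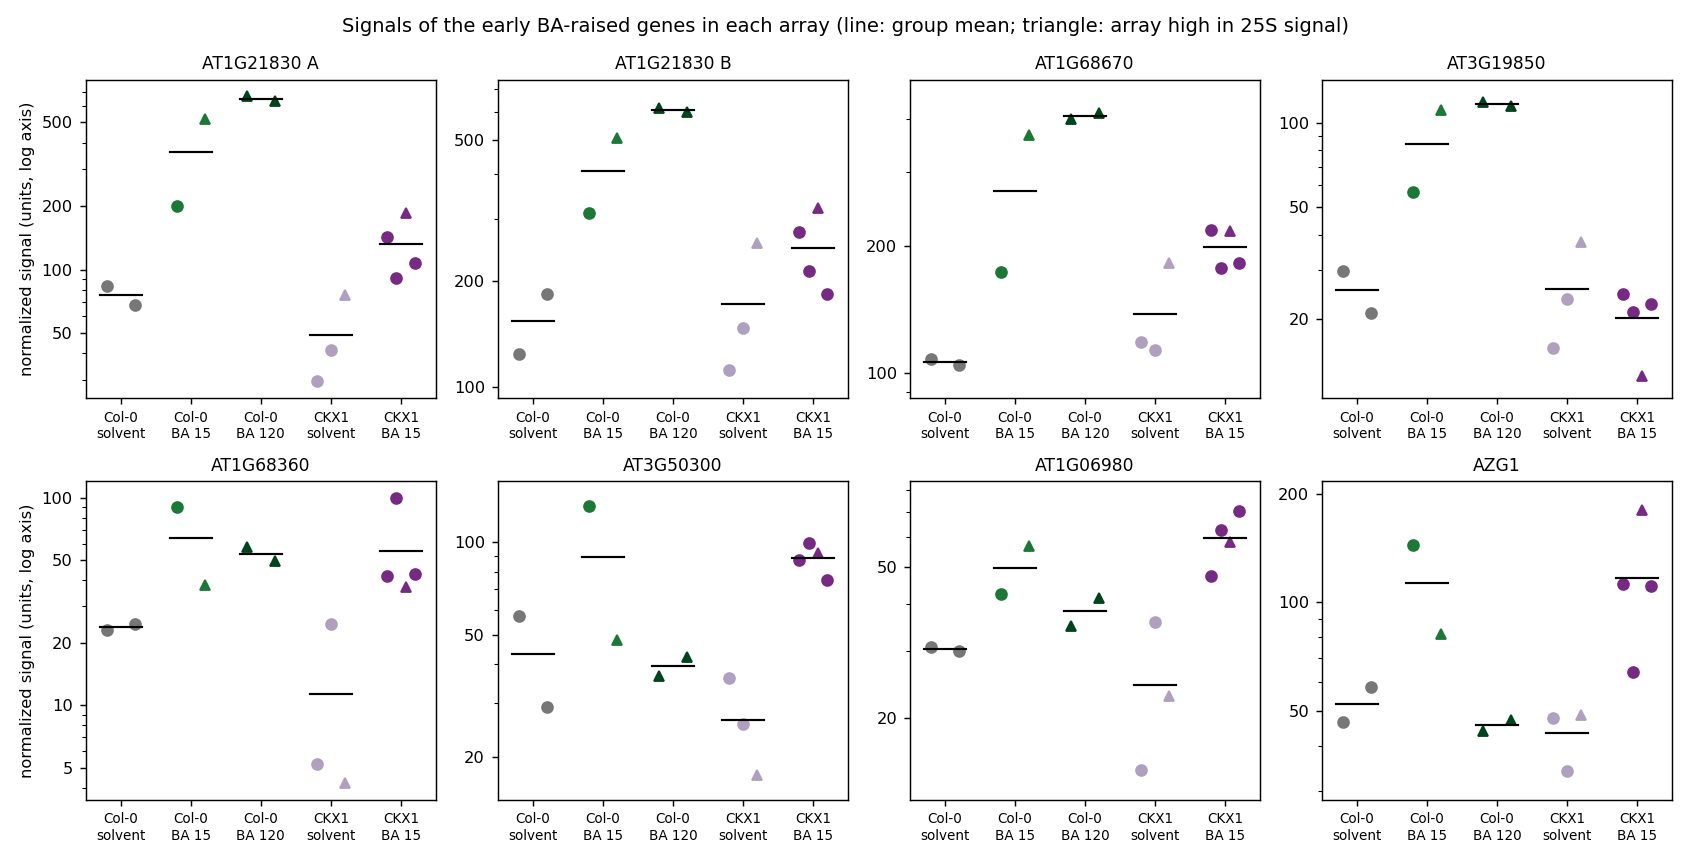
Normalized signal (units, log axis) of the 8 member probe sets in each of the 13 arrays, by group. Points are arrays, triangles are the 5 arrays high in 25S signal and lines are group means; AT1G21830, AT1G68670 and AT3G19850 stand highest in both Col-0 120 min arrays, while AT3G50300 and AZG1 are near their solvent signals there.

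The genes fell into 2 shapes over time in Col-0, a grouping made after their values were seen. AT1G21830, AT1G68670 and AT3G19850 were higher at 15 min and higher again at 120 min. AT3G50300, AZG1 and AT1G06980 were higher at 15 min and nearer to solvent at 120 min, and AT1G68360 kept an intermediate signal. Log2 differences below come from limma on log2(signal + 3.39), which compresses the differences of dim probe sets.

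AT1G21830 was measured by 2 probe sets, called A (the dimmer one in Col-0 with solvent) and B. On A its signal was 83.5 and 68.2 units in the Col-0 solvent arrays, 200.7 and 520 units at 15 min, and 663.4 and 632.8 units at 120 min. The 3 groups did not overlap, and the 15 min arrays differed from each other by more than the solvent or 120 min arrays did. The mean was 75.9 ± 10.8 units (SD, n = 2) with solvent, 360.4 ± 225.8 units (n = 2) at 15 min and 648.1 ± 21.6 units (n = 2) at 120 min. This is a log2 difference from solvent of 2.05 at 15 min (SE 0.50).

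Probe set B of AT1G21830 gave the same order of groups in Col-0. Its signals were 123.6 and 183 units with solvent, 311.6 and 507.5 units at 15 min, and 602.3 and 618.7 units at 120 min. The log2 difference from solvent was smaller than on probe set A at each time, with 1.38 (SE 0.42) at 15 min and 2.00 (SE 0.42) at 120 min, against 3.05 (SE 0.50) at 120 min on probe set A. Over the 13 arrays the log2 signals of the 2 probe sets correlated at r = 0.95.

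AT1G68670 had tight solvent and 120 min signals in Col-0. It had 107.9 and 104.6 units with solvent, 173.5 and 367.4 units at 15 min, and 399.8 and 413.3 units at 120 min. All 15 min signals lay above solvent and below 120 min. The log2 difference at 15 min was 1.22 (SE 0.35).

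AT3G19850 followed the same order in Col-0 at a dimmer signal. It had 29.6 and 21 units with solvent, 57 and 111.3 units at 15 min, and 119.2 and 115.1 units at 120 min. Its 15 min array 2 was close to the 120 min arrays and array 1 was between the groups. The log2 difference at 15 min was 1.55 (SE 0.43).

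AT3G50300 was the 1 member whose 15 min and solvent arrays overlapped in Col-0. Its signal was 57.6 and 29.2 units with solvent, 130.6 and 48.1 units at 15 min, and 36.8 and 42.2 units at 120 min. Only array 1 of the 15 min pair stood above both solvent arrays. The log2 difference at 15 min was 0.90 (SE 0.46).

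AZG1 was higher in both 15 min arrays and within reach of its solvent signals by 120 min. It had 46.5 and 58.2 units with solvent, 144.5 and 81.6 units at 15 min, and 44.1 and 47.1 units at 120 min. The mean at 15 min was 113.1 ± 44.5 units (n = 2), a log2 difference from solvent of 1.02 (SE 0.43). The 120 min arrays overlapped with the solvent arrays and not with the 15 min arrays.

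AT1G06980 had the smallest 15 min difference of the 8 in Col-0. Its signal was 30.7 and 30 units with solvent, 42.5 and 56.7 units at 15 min, and 34.9 and 41.5 units at 120 min. The 3 groups kept apart, with 120 min between solvent and 15 min. The log2 difference was 0.64 (SE 0.36) at 15 min.

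AT1G68360 lay above solvent at both times. It had 23.1 and 24.6 units with solvent, 90.2 and 38.1 units at 15 min, and 58.1 and 49.5 units at 120 min. The 120 min arrays lay between the 15 min arrays, so the times overlapped. The log2 difference was 1.19 (SE 0.64) at 15 min.

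In the count over Col-0, 7 of the 8 member probe sets were higher at 15 min than with solvent in every array, against 11.6% of the 15922 probe sets tested. That share is background only, since this comparison chose the members. Their median log2 difference was 1.21, and the median of all tested probe sets was −0.04. Ranks by p-value describe the choice and support nothing. Among the 4033 named probe sets that were higher, the probe sets of AT1G21830, AT3G19850 and AT1G68670 held ranks 2 to 5, while AZG1 held rank 28 and AT3G50300, AT1G68360 and AT1G06980 held ranks 73, 92 and 119.

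In CKX1 other members came first. AT3G50300, AT1G06980, AT1G68360 and AZG1 held ranks 1 to 4 of the 4331 named probe sets that were higher at 15 min. AT1G21830 held rank 7 on probe set A, near the top as in Col-0, and rank 149 on probe set B. AT1G68670 held rank 99, and AT3G19850 was not higher. Of the 8 probe sets, 5 were higher at 15 min without overlap in CKX1, against 1.13% of all tested. This comparison too chose the members. Some were listed from Col-0 and others from CKX1, so different genes at the top follow from the choice.

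The signal of AT3G50300 in CKX1 was 36.2, 25.6 and 17.5 units with solvent and 86.9, 98.8, 92.1 and 75.4 units at 15 min. Every BA array was at more than the highest solvent array, and the 4 BA arrays were close together. The mean was 26.4 ± 9.38 units (n = 3) with solvent and 88.3 ± 9.88 units (n = 4) at 15 min, a log2 difference of 1.66 (SE 0.35).

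AT1G06980 had 14.6, 35.8 and 22.8 units with solvent and 47.3, 62.7, 58.1 and 70.1 units at 15 min in CKX1. The groups did not overlap, and the log2 difference was 1.24 (SE 0.28). AZG1 had 47.7, 34 and 48.7 units with solvent and 112.4, 64.3, 180.7 and 111.3 units at 15 min. Its groups did not overlap either, although the BA arrays spread widely, and the log2 difference was 1.29 (SE 0.32).

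AT1G68360 had the largest log2 difference among the members in CKX1, 2.15 (SE 0.49). Its signal was 5.2, 24.7 and 4.2 units with solvent and 41.8, 99.8, 37.2 and 43 units at 15 min. Solvent arrays 1 and 3 were close to the pseudocount, and solvent array 2 was at the level of Col-0. Over 23 alternative settings the difference ran from 1.35 to 2.75. BA array 2 was far above the other 3.

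AT1G21830 was higher in all 4 BA arrays of CKX1 on probe set A, with 29.5, 41.6 and 75.5 units with solvent and 142.7, 91.5, 185.6 and 107 units at 15 min. The log2 difference was 1.42 (SE 0.38). On probe set B it had 111.6, 147.1 and 256.1 units with solvent and 274.8, 212.7, 322.3 and 183.4 units at 15 min, a log2 difference of 0.58 (SE 0.32). The groups overlapped there through solvent array 3, one of the arrays high in 25S signal.

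AT1G68670 had 118.4, 113.4 and 182.3 units with solvent and 217.7, 177.8, 216.5 and 182.2 units at 15 min in CKX1, a log2 difference of 0.54 (SE 0.27). Solvent array 3 again overlapped with the BA arrays. The other solvent arrays lay below every BA array, in a comparison that chose the members.

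AT3G19850 was the exception in CKX1. Its signal was 15.7, 23.5 and 37.6 units with solvent and 24.5, 21.2, 12.5 and 22.5 units at 15 min. The groups overlapped and the log2 difference was −0.26, with a 95% interval from −0.98 to 0.46. By array number the differences were 0.55, −0.13 and −1.37, the last from the pair high in 25S signal, and without that pair the difference was 0.20.

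For the other 7 probe sets the 15 min array lay above the solvent array of the same number in 3 of 3 CKX1 pairs. These arrays took part in the choice and no share over all probe sets is given, so the count is no result about the members. The pair numbered 3, both of whose arrays were high in 25S signal, gave 1.82 for AZG1, 2.19 for AT3G50300, 1.23 for AT1G06980 and 2.42 for AT1G68360. The other CKX1 arrays gave 1.14, 1.41, 1.24 and 1.95 for the same genes. These genes were listed from this comparison, so that positive values follow from the choice.

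In all, 4 genes were higher at 15 min without overlap in both genotypes, namely AT1G21830 A, AT1G68360, AT1G06980 and AZG1. Among all tested probe sets 44, or 0.276%, did so. The members were chosen on these comparisons and the share is not a result about them.

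**Figure D2:**
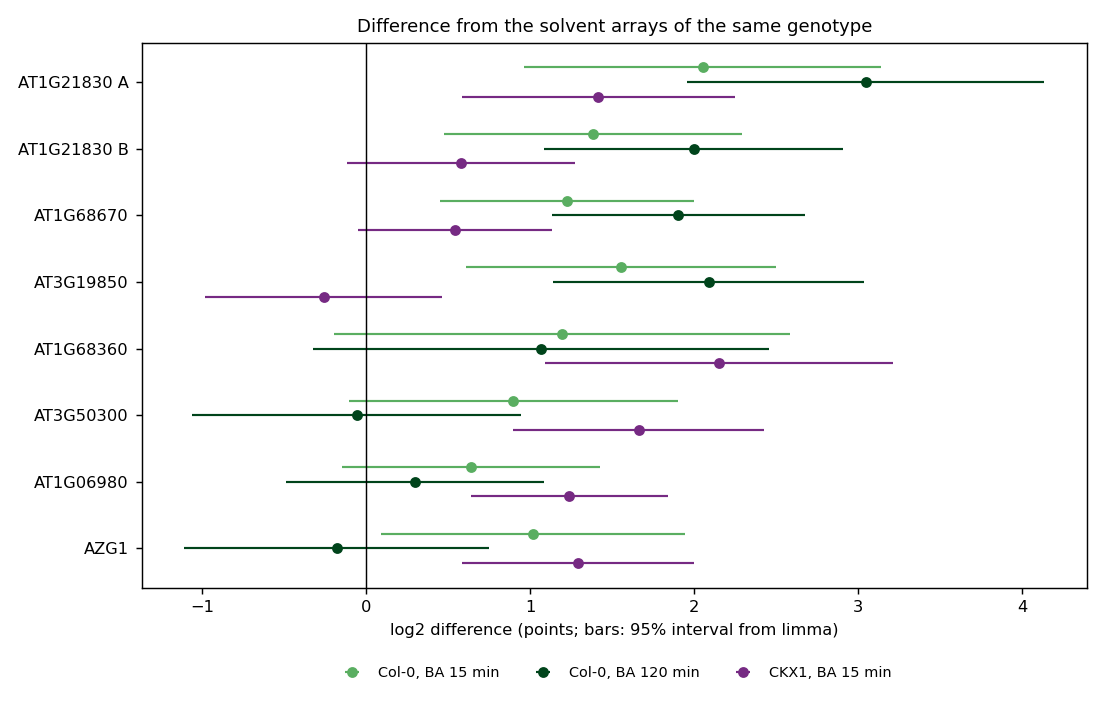
Log2 difference from the solvent arrays of the same genotype for each member (x axis; points, with 95% intervals as bars) in Col-0 at 15 and 120 min and in CKX1 at 15 min. AT1G21830, AT1G68670 and AT3G19850 lie between 1.90 and 3.05 at 120 min, while AT3G50300 and AZG1 lie at −0.06 and −0.18. The 15 min values chose the members, so the 15 min intervals are no test of a difference from 0.

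After 120 min of BA, AT1G21830, AT1G68670 and AT3G19850 had the largest differences from solvent among the members, and none of the 8 probe sets passed the threshold over all 15922 (limma, adjusted p under 0.05; 0.0377% of all passed). The 120 min arrays took no part in the choice, but the solvent arrays did. A choice for a rise over solvent favours low solvent signals, and so positive differences at 120 min too. AT1G21830 had 3.05 on probe set A (95% interval 1.96 to 4.13, limma adjusted p = 0.0700) and 2.00 on probe set B (1.09 to 2.91, adjusted p = 0.111). AT3G19850 had 2.09 (1.14 to 3.03, limma adjusted p = 0.108) and AT1G68670 had 1.90 (1.13 to 2.67, adjusted p = 0.0816). In linear terms the mean signal was 8.54 times that of solvent for AT1G21830 A, 4.63 times for AT3G19850 and 3.83 times for AT1G68670.

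Among the differences of all tested probe sets, these 4 lay between the percentiles 98.9 and 99.8. An unadjusted p under 0.05 was found for these 4 and for no other member, against 4.9% of all probe sets in this direction. Without Col-0 120 min array 1, whose labels disagree, the differences were 3.01 and 1.98 for AT1G21830 A and B, 2.06 for AT3G19850 and 1.93 for AT1G68670. The calls depended on the arrays that set the spread. Without Col-0 15 min array 2 and both CKX1 arrays numbered 3, the differences were the same and the same 4 probe sets passed, with limma adjusted p from 0.000442 to 0.00309, among 1604 of all 15922 probe sets that passed in that setting. In a fit of the compared groups alone 5 passed, among 3672 of all probe sets.

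The remaining members had small or uncertain differences at 120 min. AT1G68360 had 1.07 (95% interval −0.32 to 2.46, limma adjusted p = 0.521), with both BA arrays above both solvent arrays. AT1G06980 had 0.30 (−0.49 to 1.09, adjusted p = 0.776). AT3G50300 had −0.06 (−1.06 to 0.94, limma adjusted p = 0.973) and AZG1 had −0.18 (−1.11 to 0.75, adjusted p = 0.897), and both values turned positive with arrays centred on their median, at 0.14 and 0.0212. Without 120 min array 1, AT3G50300 had 0.03, AZG1 −0.13, AT1G06980 0.41 and AT1G68360 0.96. Intervals of that width do not show that AT3G50300 and AZG1 were back at the solvent signal. That centring moved the median of all probe sets from −0.11 to 0.09 in this comparison. Of the 8 probe sets, 6 were higher than solvent without overlap at 120 min, against 26.3% of all tested.

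Between 15 and 120 min the genes of the 2 shapes had differences of opposite sign, which follows from a grouping made on these values. Again no member passed the threshold (0.0188% of all passed). This comparison uses the 15 min arrays that chose the members, and a choice of high 15 min signals favours lower values later. AZG1 had −1.20 from 15 to 120 min (95% interval −2.12 to −0.27, limma unadjusted p = 0.0161, adjusted p = 0.812). It was the 1 member with an unadjusted p under 0.05, against 3.42% of all tested in that direction. AT3G50300 had −0.96 (−1.96 to 0.05, adjusted p = 0.946), AT1G06980 had −0.34 (−1.13 to 0.45, adjusted p = 1.00) and AT1G68360 had −0.13 (−1.52 to 1.26, adjusted p = 1.00). In linear terms the mean signal at 15 min was 2.48 times that at 120 min for AZG1 and 2.26 times for AT3G50300.

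On the other side, AT1G21830 had 0.99 on probe set A (95% interval −0.09 to 2.08, limma adjusted p = 0.946) and 0.61 on probe set B (−0.30 to 1.52, adjusted p = 0.995). AT1G68670 had 0.68 (−0.09 to 1.45, adjusted p = 0.946) and AT3G19850 had 0.53 (−0.41 to 1.48, adjusted p = 1.00). All 4 were higher at 120 min without overlap, against 17.8% of all tested, and AT3G50300, AT1G06980 and AZG1 were lower without overlap, against 23.7%. Without 120 min array 1 every direction was the same, with 0.51 to 0.96 for these 4 probe sets, −1.15 for AZG1, −0.87 for AT3G50300, −0.23 for AT1G06980 and −0.24 for AT1G68360.

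The 2 Col-0 15 min arrays did not give the same picture. The 25S signal was 16.1 units in array 1 and 92.5 units in array 2, against 695.9 and 548.2 units at 120 min. For the probe sets of AT1G21830, AT1G68670 and AT3G19850, array 2 lay within 0.07 to 0.32 (log2) of the 120 min mean. Array 1 lay 0.96 to 1.67 below that mean. For AT3G50300 and AZG1, array 1 stood 1.65 and 1.59 above the 120 min mean and array 2 stood 0.27 and 0.80 above it. Without array 2 and both CKX1 arrays numbered 3, AT1G21830 A had 1.67 and AT1G68670 had 1.21 between the times, while AZG1 had −1.59 and AT3G50300 had −1.65. That setting leaves array 1 alone at 15 min in Col-0, so only the sizes are given. Time cannot be told apart from the 25S signal there. With array 1 left out instead, the difference farthest from 0 was that of AZG1, at −0.80.

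**Figure D3:**
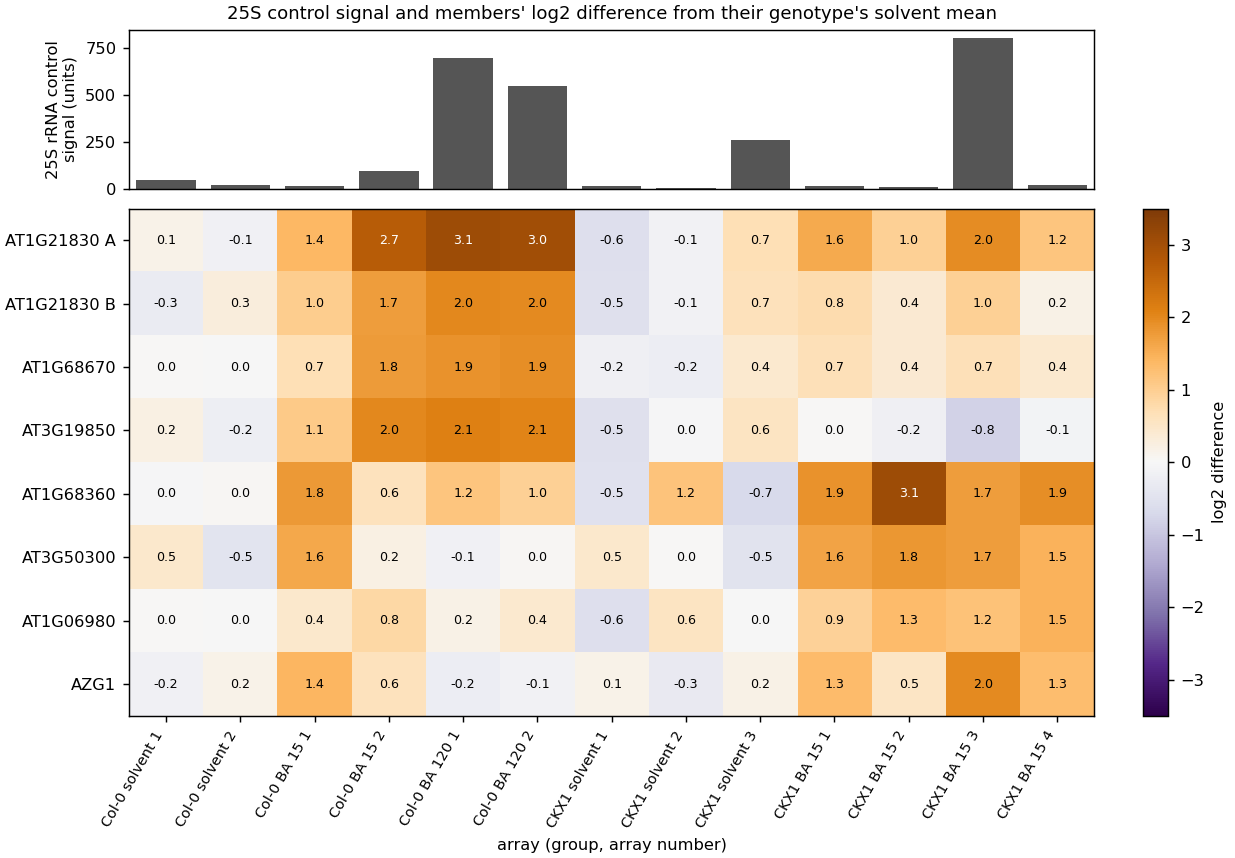
Top, 25S ribosomal RNA control signal (units) of each of the 13 arrays as bars. Bottom, log2 difference of each member from the mean of its genotype's solvent arrays, with the value in each cell; the upper 4 rows are darkest in Col-0 15 min array 2 and both 120 min arrays, and the lower 4 rows have positive values in all 4 CKX1 BA arrays.

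Pairs of members were also correlated on log2 signal over the 13 arrays, with AT1G68360, intermediate over time, placed beside AT3G50300, AT1G06980 and AZG1. The 6 pairs among the probe sets of AT1G21830, AT1G68670 and AT3G19850 had r from 0.77 to 0.95, and the 6 pairs among AT1G68360, AT3G50300, AT1G06980 and AZG1 had 0.41 to 0.78. The 16 pairs between these sets had −0.22 to 0.56, so the ranges overlapped. The lowest pair within the second set was AT1G68360 with AZG1, at 0.41, and the highest between the sets was AT1G21830 A with AT1G68360, at 0.56. The arrays share groups and scaling, and the sets were made from the same values, so this is a description. The correlation with the log2 25S signal was 0.68 and 0.71 for AT1G21830 A and B, 0.69 for AT1G68670 and 0.47 for AT3G19850. It was between −0.14 and 0.08 for the other 4 genes. Tissue markers also differed in the arrays where AT1G21830, AT1G68670 and AT3G19850 were highest. The root hair expansin EXPA7 had 135.9 and 163 units in Col-0 with solvent and 148.1 units in 15 min array 1, against 40.4 units in 15 min array 2 and 39.8 and 32.6 units at 120 min. EXPA18, another root hair expansin, had 174, 221.7 and 202.8 units against 64.3, 63.5 and 67.4 units in the same arrays. The root marker AT1G62500 went the other way, with 38.4 to 58 units in the first 3 of these arrays and 115.6 to 197.1 units in the others. The chlorophyll-binding LHCB4.2 had 2284.7 to 3101.2 units in the former and 4586.8 to 6791.4 units in the latter, and LHCB4.1 had 3940.7 to 4977.9 and 6257.7 to 8940.2 units. PYK10 overlapped between them, at 2338.6 to 3267.4 and 2228.6 to 3862.6 units. In CKX1 the arrays numbered 3 stood apart from the other CKX1 arrays in LHCB4.2 alone, with 3750.7 and 4455.2 units against 2010.7 to 3090.9 units. The other markers overlapped there, as EXPA7 did with 66.1 and 94.1 units against 71.8 to 158 units. The part of the 25S signal and of these markers in the higher signals of the 3 genes was not tested. At 120 min it cannot be told apart from BA, since both 120 min arrays were high in 25S signal and neither Col-0 solvent array was.

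The genotypes were compared with solvent and after 15 min of BA. Both comparisons use arrays whose values chose the members, and a gene chosen for a high 15 min signal in Col-0 is favoured to be lower in CKX1 at 15 min. With solvent no member passed the threshold (limma, 0.0126% of all passed), none had an unadjusted p under 0.05 (1.51% of all higher and 2.8% lower), and every 95% interval included 0. AT1G68360 was lowest, with −1.15 in CKX1 against Col-0 (95% interval −2.42 to 0.11, limma adjusted p = 0.897). The other 7 lay between −0.69 for AT1G21830 A and 0.33 for AT1G68670. AT1G68670 was the 1 probe set higher in CKX1 without overlap, against 9.41% of all tested. Its 104.6 and 107.9 units in Col-0 lay just below the lowest CKX1 array, at 113.4 units.

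After 15 min of BA, AT3G19850 was lower in CKX1 than in Col-0 by a log2 difference of −1.85 (95% interval −2.67 to −1.03). The adjusted p was 0.141 (limma, unadjusted p = 0.000366), and 0.0188% of all probe sets passed. All 4 CKX1 arrays, at 12.5 to 24.5 units, lay below both Col-0 arrays, at 57 and 111.3 units. AT1G21830 A also lay lower without overlap, at −1.33 (−2.27 to −0.38, adjusted p = 0.356). These were 2 of the 8 probe sets, against 9.19% of all tested, and the same 2 had an unadjusted p under 0.05, against 5.85% of all in that direction. For both, the Col-0 arrays include array 2, the one high in 25S signal. Without it AT3G19850 had −1.39 and AT1G21830 A had −0.65.

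The other members were nearer to each other in the 2 genotypes at 15 min. AZG1 had 0.02 (95% interval −0.79 to 0.82), AT3G50300 had 0.14 (−0.73 to 1.00), AT1G06980 had 0.25 (−0.43 to 0.93) and AT1G68360 had −0.20 (−1.40 to 1.01). In linear terms AZG1 had a mean of 113.1 ± 44.5 units (n = 2) in Col-0 and 117.2 ± 47.9 units (n = 4) in CKX1. AT1G68670 had −0.35 (−1.02 to 0.32) and AT1G21830 had −0.71 on probe set B (−1.49 to 0.08). Intervals of this width do not show that the genotypes were alike.

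**Figure D4:**
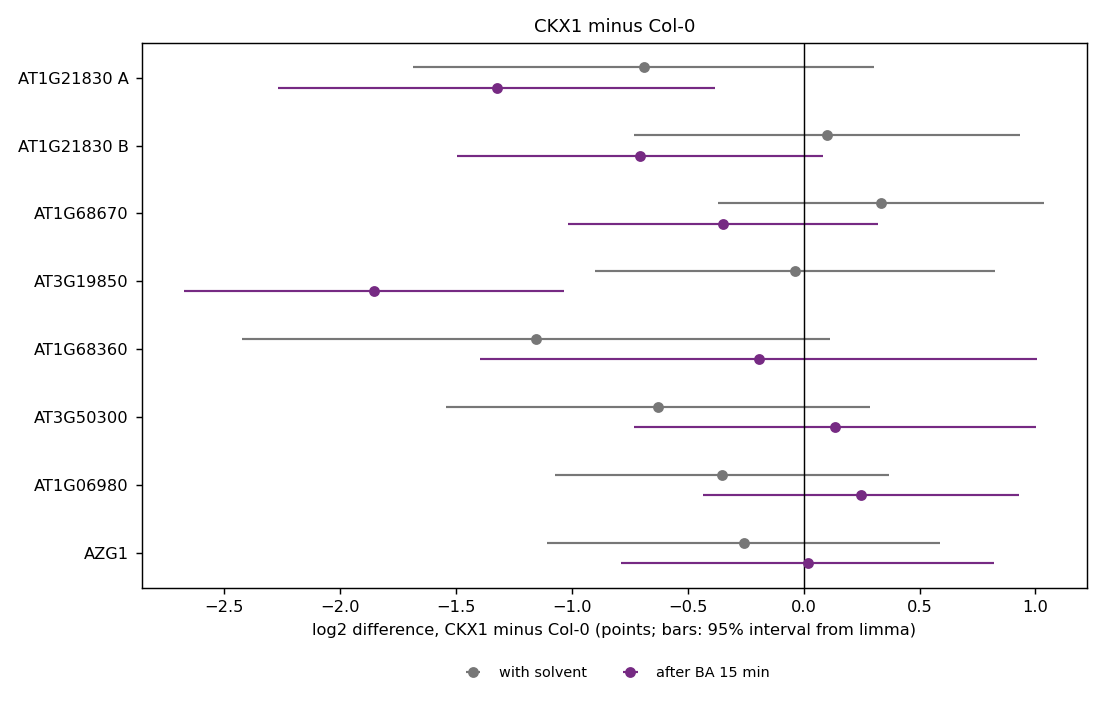
Log2 difference between CKX1 and Col-0 (x axis, CKX1 minus Col-0; points, with 95% intervals as bars) for each member, with solvent and after 15 min of BA. AT3G19850 stands apart after BA, at −1.85, and with solvent all 8 intervals include 0.

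The difference between the genotypes in the 15 min response was built from the 2 comparisons that chose the members, which favours a negative value for genes listed from Col-0 and a positive one for genes listed from CKX1, and no test is given for the members. AT3G19850, which was not higher in CKX1, had −1.81 (SE 0.54), a sign that a choice from Col-0 favours. AT1G21830 had −0.64 and −0.81 on its 2 probe sets and AT1G68670 had −0.68. The 4 genes that stood out in CKX1 had positive values, from 0.28 for AZG1 to 0.96 for AT1G68360. Of all probe sets tested, 0 passed in this comparison (limma, 0%), and 169 had an unadjusted p under 0.05. Without Col-0 15 min array 2 and both CKX1 arrays numbered 3, AT3G19850 had −0.89 and AT1G21830 A had 0.21.

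The groups were also ordered by mean signal for each probe set. AT1G21830 and AT1G68670 ran from Col-0 120 min through Col-0 15 min and CKX1 15 min down to the solvent groups. The ranges of Col-0 15 min and CKX1 15 min overlapped on probe set B and AT1G68670 and not on probe set A. For AT3G19850 both Col-0 BA groups stood above the other 3 groups, which overlapped in turn. For AT3G50300, AT1G06980 and AZG1 the 15 min groups of both genotypes came first and overlapped, and every array of the CKX1 15 min group lay above all solvent and 120 min arrays. AT1G68360 had both 15 min groups and the 120 min group overlapping at the top.

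Of the pathway, 2 of the 10 type-A regulators listed had a probe set with 1 gene. ARR15 had 11.3 and 2.7 units in Col-0 with solvent, 119.8 and 57.8 units at 15 min, and 80.4 and 61.7 units at 120 min. ARR16, listed as RR16, had log2 differences of 1.23 at 15 min and 1.89 at 120 min in Col-0 and 0.68 at 15 min in CKX1. Like AZG1 and AT3G50300, ARR15 was higher in Col-0 15 min array 1 than in array 2. Both of its 120 min arrays lay above solvent, as those of AT1G21830 did.

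Among 21 genes of cytokinin synthesis, conjugation and breakdown, 2 were measured, both enzymes that attach glucose to cytokinin rings. UGT76C1 had log2 differences of 0.92 and 1.32 at 15 and 120 min in Col-0 and 0.19 at 15 min in CKX1. UGT76C2 had 0.53, 1.38 and 0.23. No receptor, phosphotransfer protein, cytokinin response factor, nitrate response gene or further purine or cytokinin transporter of the lists had a probe set with 1 gene. None of the 8 loci listed beside AT3G19850 had one either. The 1 type-B regulator with a probe set did not pass the filter.

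Loci listed as relatives of single members rest on background knowledge and not on the annotation used here. Of 6 listed beside AT1G68670, 4 were tested, and their median log2 difference was 0.42 at 15 min and −0.07 at 120 min in Col-0 and 0.45 at 15 min in CKX1. The most different was AT3G25790, at −1.71 at 120 min, where its 6.8 and 1.1 units were near the pseudocount, against 17.7 and 19.8 units with solvent. At 120 min AT4G37180 had 1.07, AT1G25550 had 0.42 and the dim AT1G49560 had −0.56. GIS, a regulator of trichome formation listed beside AT1G68360, had −0.32 at 15 min in Col-0 and −0.16 in CKX1. HCT, an acyltransferase of lignin synthesis listed beside AT3G50300, had 0.27 and 0.32. Over the 11 lists, 10 of 95 listed loci were tested and 0 passed in any of the 7 comparisons (limma, adjusted over all probe sets).

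Likeness of pattern is a description, since the members were chosen for high 15 min signals in these same arrays. Other genes with higher signals after BA are therefore favoured to rank high. The named gene nearest to the mean profile of the 8 probe sets was ARR15, with r = 0.86 over the 13 arrays among 8740 named probe sets. It was followed by AT2G40230 (r = 0.83), the cation exchanger CHX20 (r = 0.81), AT2G39170 (r = 0.78) and AT1G11900 (r = 0.77). UGT76C1 was nearest to AT1G68670 (r = 0.94) and to AT1G21830 B (r = 0.93). On probe set A AT4G28025 came first (r = 0.90) and UGT76C1 next (r = 0.89). The nearest to AT3G19850 were AT4G37220 (r = 0.94) and the linker histone HIS1-3 (r = 0.93), both with negative differences in CKX1 at 15 min, −1.11 and −0.58. AT1G69580 was nearest to AT3G50300 (r = 0.83), SAG101 to AZG1 (r = 0.80), AT4G27980 to AT1G06980 (r = 0.85) and AT1G32530 to AT1G68360 (r = 0.85).

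No member is a neighbour of another on the chromosomes, by the gene order of the RefSeq table. Among the 2 protein-coding genes on either side of each member, 9 had a tested probe set. Their log2 differences lay between −0.32 and 0.59 in Col-0 and between −0.38 and 0.53 in CKX1 at 15 min. At 120 min they lay between −1.01 for AT1G21810, next to AT1G21830, and 1.40 for bHLH121, next to AT3G19850.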

How the data were processed

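Per the labels' protocols, 5 µg of total RNA per sample was copied to cDNA and labelled with biotin as cRNA, and a service centre ran the arrays and normalized the values. The deposited table holds 1 normalized signal intensity for each probe set and array. How the signals were summarised and scaled, and with which software, is not given in the sources used here. Controls (64 of 22810 probe sets) were left out. Values under 1 were set to 1, 3.39 (0.1 of the median signal) was added, log2 was taken, and probe sets with a mean under the 30th percentile were removed. One limma fit (version 3.58.1, R 4.3.3) covered the 13 arrays in 5 groups, with no block, a trend on intensity and 8 residual degrees of freedom. P-values were adjusted by Benjamini-Hochberg over the 15922 remaining probe sets in each comparison, with a threshold of 0.05. The fit was tested on simulated data. Genes were named from the platform annotation where a probe set has 1 gene, updated through the RefSeq gene table of the TAIR10.1 assembly.

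The members and lists were chosen with earlier results of these data known. Every member is named, and other genes are named by list or by Pearson's r with a member's pattern over the 13 arrays. Same-numbered CKX1 arrays deviated together from their group means (r = 0.63, 0.58 and 0.73 for numbers 1 to 3), so the numbers pair those arrays by the data alone. Same-numbered Col-0 arrays did not (r = 0.11, −0.02 and 0.02). Alternatives were other scalings, pseudocounts and filters, a variance without the trend, a fit limited to the groups compared, array weights, a replicate block and leaving out arrays.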

Additional observations from a re-analysis of the deposited data

Results flagged for a closer look

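AT1G68360 had 1 array far from the others in the CKX1 15 min group. BA array 2 had 99.8 units against 37.2 to 43 units in the other 3, and the gap to the nearest array was 0.907 of the group's range, above Dixon's critical value for 4 arrays. Chance passes that value in about 1 group of 20, and the 8 member probe sets were each checked in this group. The solvent array of the same number was also the highest of its group, at 24.7 units.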

How the results depend on the processing

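No member passed the threshold (limma) between genotypes, with solvent or after 15 min of BA, under any of the alternatives run. At 120 min against solvent in Col-0, 0 members passed as reported, 5 in a fit of the compared groups alone, 5 with array weights, 4 with the replicate block and 4 without Col-0 15 min array 2 and both CKX1 arrays numbered 3. Of all 15922 probe sets, 6 passed as reported and 3672, 3472, 1027 and 1604 in these 4 settings. Leaving out 1 array at a time gave 0 to 2, with 2 without either Col-0 15 min array and 1 without CKX1 solvent array 3 or CKX1 15 min array 3. Of all 15922 probe sets, 71 passed without Col-0 15 min array 1 and 74 without array 2. Without CKX1 solvent array 3 it was 12, and without CKX1 15 min array 3 it was 23. Between 120 and 15 min the count of members was 0 in every setting that kept both Col-0 15 min arrays. No count is given without Col-0 15 min array 2 and both CKX1 arrays numbered 3, since 1 Col-0 array is left at 15 min. The replicate numbers of Col-0 do not pair its arrays by the data, and the paired fit could not be made for the comparisons between genotypes, since the numbers lie within a genotype.

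Values near 0 changed sign. With arrays centred on their median, AT3G50300 and AZG1 had 0.14 and 0.0212 at 120 min against solvent, AT1G68360 had 0.0166 between the times and AT3G19850 had 0.14 between genotypes with solvent. After quantile normalization AT3G50300 had 0.12 and AT3G19850 had 0.14 in the same comparisons. With array weights AT1G21830 B had −0.11 between genotypes with solvent and AT3G50300 had −0.0054 after BA.

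Without Col-0 15 min array 2 and both CKX1 arrays numbered 3, which leaves both Col-0 120 min arrays high in 25S signal, AT1G21830 B had −0.23 between genotypes with solvent. After BA, AT1G68670 had 0.14, AT3G50300 had −0.58 and AZG1 had −0.62. In the difference of responses AT1G21830 A had 0.21, AT1G68670 had 0.0204, AT3G50300 had −0.18 and AZG1 had −0.27.

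Leaving out 1 array at a time gave ranges that crossed 0. After BA between genotypes these were −0.78 to 0.39 for AT1G68360, −0.88 to 0.18 for AT1G68670, −0.55 to 0.83 for AT3G50300 and −0.38 to 0.42 for AZG1. With solvent they were −0.23 to 0.38 for AT1G21830 B and −0.32 to 0.23 for AT3G19850. AT1G68360 ran from −0.71 to 0.46 between the times and AT3G50300 from −0.51 to 0.39 at 120 min against solvent. In the difference of responses AT1G21830 A ran from −1.31 to 0.0443 and AZG1 from −0.12 to 0.67. The causes were not tested. Of 939 values recomputed for tested comparisons, 883 kept direction and side of the threshold, 30 changed sign and 26 newly passed. No call could be lost, since no member passed as reported. AT1G68360 has no value under the filter at the 50th percentile, which it did not pass. The number of arrays limits the precision.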
